A study of Gallus gallus with 12 samples.

Results

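Potassium, calcium and sodium channel genes were examined across 4 groups of chicken embryonic cells. The genes were those whose symbol in the array's annotation begins with KCN, CACN or SCN and continues with a letter or a number. Of the 13008 genes with a symbol of their own on the array, 103 met this rule, through 209 probe sets. Each gene was represented by the probe set with the highest mean over 12 arrays. Background was set at a level of 3.61 on the log2 scale, below which 99% of the single-array values of 746 viral and reporter probe sets lay. A group counted as above it by its mean. By that measure 50 of the 103 channel genes were above background in at least 1 group.

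The study measured RNA from White Leghorn embryos on Affymetrix chicken arrays, with 3 independent samples in each of 4 groups and 1 array per sample. PGC are primordial germ cells, the precursors of sperm and eggs, and GSC are gonadal stromal cells, the somatic cells of the same organ. Both were separated with a magnetic sorter from mixed-sex gonads at embryonic day 6.5, with 100 embryos pooled per sample, 270000 cells per PGC sample and 9000000 per GSC sample. CEF, fibroblasts of day 6.5 embryos (5 per sample), comprised 6000000 cells grown to passage 2, taken from the embryonic body per the study design and from the muscular area per the sample labels. Blastoderm samples held 530000 cells from 5 stage X embryos of freshly laid eggs (day 0). All groups gave 5 µg of total RNA per array, and no drug treatment or genetic change is named for any of them. The sources used here do not name the antibody of the sort.

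Ion channels are membrane proteins that let selected ions flow down their gradients. Potassium channels set the resting potential and return the membrane to it. Voltage-gated calcium and sodium channels open on depolarisation, and the epithelial sodium channel carries sodium across epithelia. Pore subunits form the path for the ion, and auxiliary subunits alter gating, trafficking or which partner is bound. These families are best known from neurons, muscle and transporting epithelia, but embryonic and non-excitable cells also use potassium and calcium channels for volume control, proliferation and migration.

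Arrays of the same group correlated at 0.972 to 0.994 across probe sets, and arrays of different groups at 0.841 to 0.965. PGC replicate 3 stood nearer to the GSC mean (r = 0.966) than PGC replicates 1 (0.935) and 2 (0.944). Named PGC folds that changed by more than 1.5 times without replicate 3, those of CACNG3 and CACNA1D, are given both ways. Smaller shifts are not. Marker lists were chosen with earlier results of these data known, so they are no independent check of the labels. Above background were 10 of 10 germ cell markers in PGC and 11 of 11 gonadal somatic markers in GSC. So were 10 of 10 fibroblast and matrix markers in CEF and 7 of 7 blastoderm markers in the blastoderm. Fibroblast and matrix markers were also above it for 9 of 10 in GSC and 8 of 10 in PGC. In the blastoderm 7 of 10 germ cell markers were above it. All 11 gonadal somatic markers were above background in PGC as well, with a summed level of 11.12 to 12.76 against 12.81 to 13.17 in GSC, and 7 of 10 germ cell markers were above it in GSC. The difference between 3′ and 5′ probe sets of the control genes ranged from 0.067 to 0.353 in PGC, from -0.087 to 0.052 in GSC, from 0.017 to 0.668 in CEF and from 0.368 to 0.815 in the blastoderm. Its part in the results below was not tested. In these bulk samples, fewer cells of a type and less RNA per cell cannot be told apart.

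Channel genes were above background less often than the array as a whole, in every group. In PGC 34 of the 103 genes were above background (33.0%, against 72.1% of all genes), in GSC 36 (35% against 71.2%), in the blastoderm 33 (32% against 70.0%) and in CEF 29 (28.2% against 70.0%). In at least 1 group it was 48.5% of the channel genes and 80.4% of all genes. Of the 50 genes, 19 were above background in all 4 groups, 9 in 3, 7 in 2 and 15 in 1 group. The highest group mean fell in the blastoderm for 16 of the 50, in GSC for 14, in PGC for 10 and in CEF for 10. These counts rank means without a test, and 8 of the 50 genes differed in none of the comparisons below. Among 22 genes with a called change of at least 4-fold, the highest group differed from the next by test in 12. The same split over all genes is not given here. The other 53 genes had group means between 1.66 and 3.43. Just inside the limit were KCNH1 (highest group mean 3.65), SCN4B (3.65), CACNB2 (3.67) and SCNN1B (3.69), and just outside it KCNJ3 (3.43), KCNT1 (3.43), KCNK15 (3.43) and KCNJ12 (3.39).

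The classes differed in how many members were measured above background. Of 8 pore subunits of voltage-gated calcium channels 7 were above it in at least 1 group, and of 7 pore subunits of voltage-gated sodium channels 1 was, SCN8A. Of all genes 80.4% were. The calcium channel count rests on the brightest probe set of each gene. For CACNA1B, CACNA1C, CACNA1H and CACNA1I every further probe set was below background in all groups. For voltage-gated potassium channel pores the count was 11 of 29, for potassium channel auxiliary subunits 7 of 13, for inward rectifiers 5 of 10, for two-pore potassium channels 6 of 12, and for calcium- or sodium-activated potassium channel pores 4 of 6. The calcium- or sodium-activated class was formed by symbol. It counts KCNU1, although that channel is known in mammals as gated by pH and voltage. Auxiliary subunits of calcium channels reached 3 of 10, sodium channel beta subunits 2 of 3 and epithelial sodium channel subunits 3 of 4. SCNM1, which the symbol rule also takes, is named for modifying a sodium channel in the mouse and is a splicing factor, not a channel subunit.

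**Figure D1:**
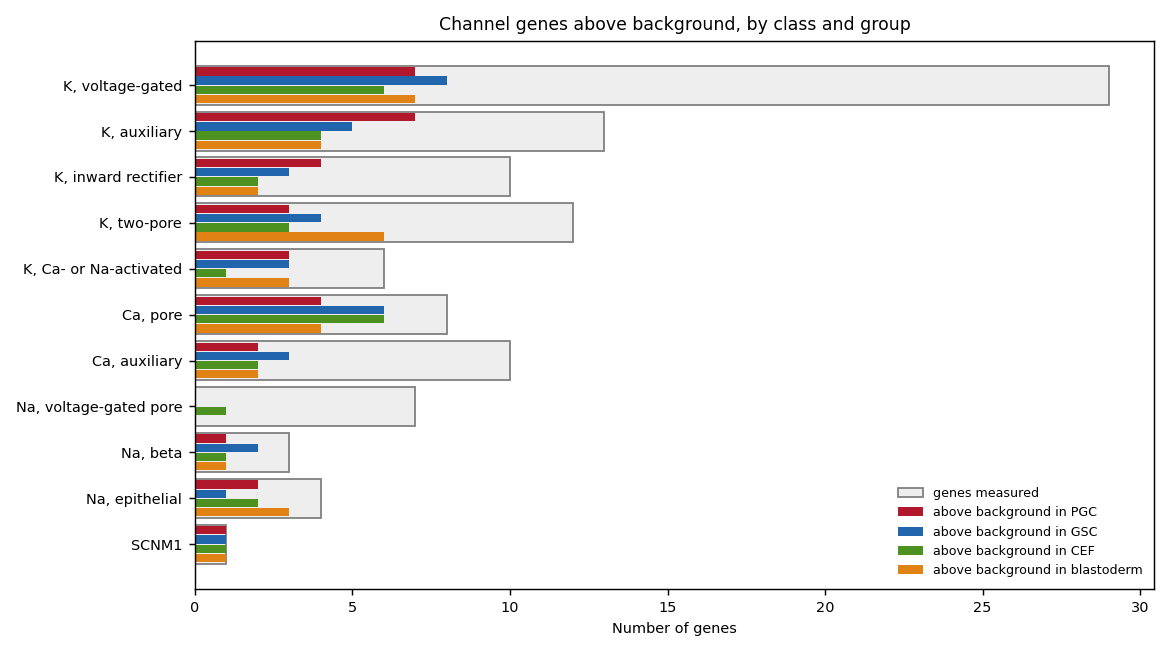
Number of channel genes (x axis) by class (y axis): the pale bar gives the genes measured, and the 4 coloured bars those whose mean lay above background in PGC, GSC, CEF and blastoderm. All 6 two-pore potassium channels that were above background in any group were so in the blastoderm, and the single sodium channel pore subunit above background was so in CEF.

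**Figure D2:**
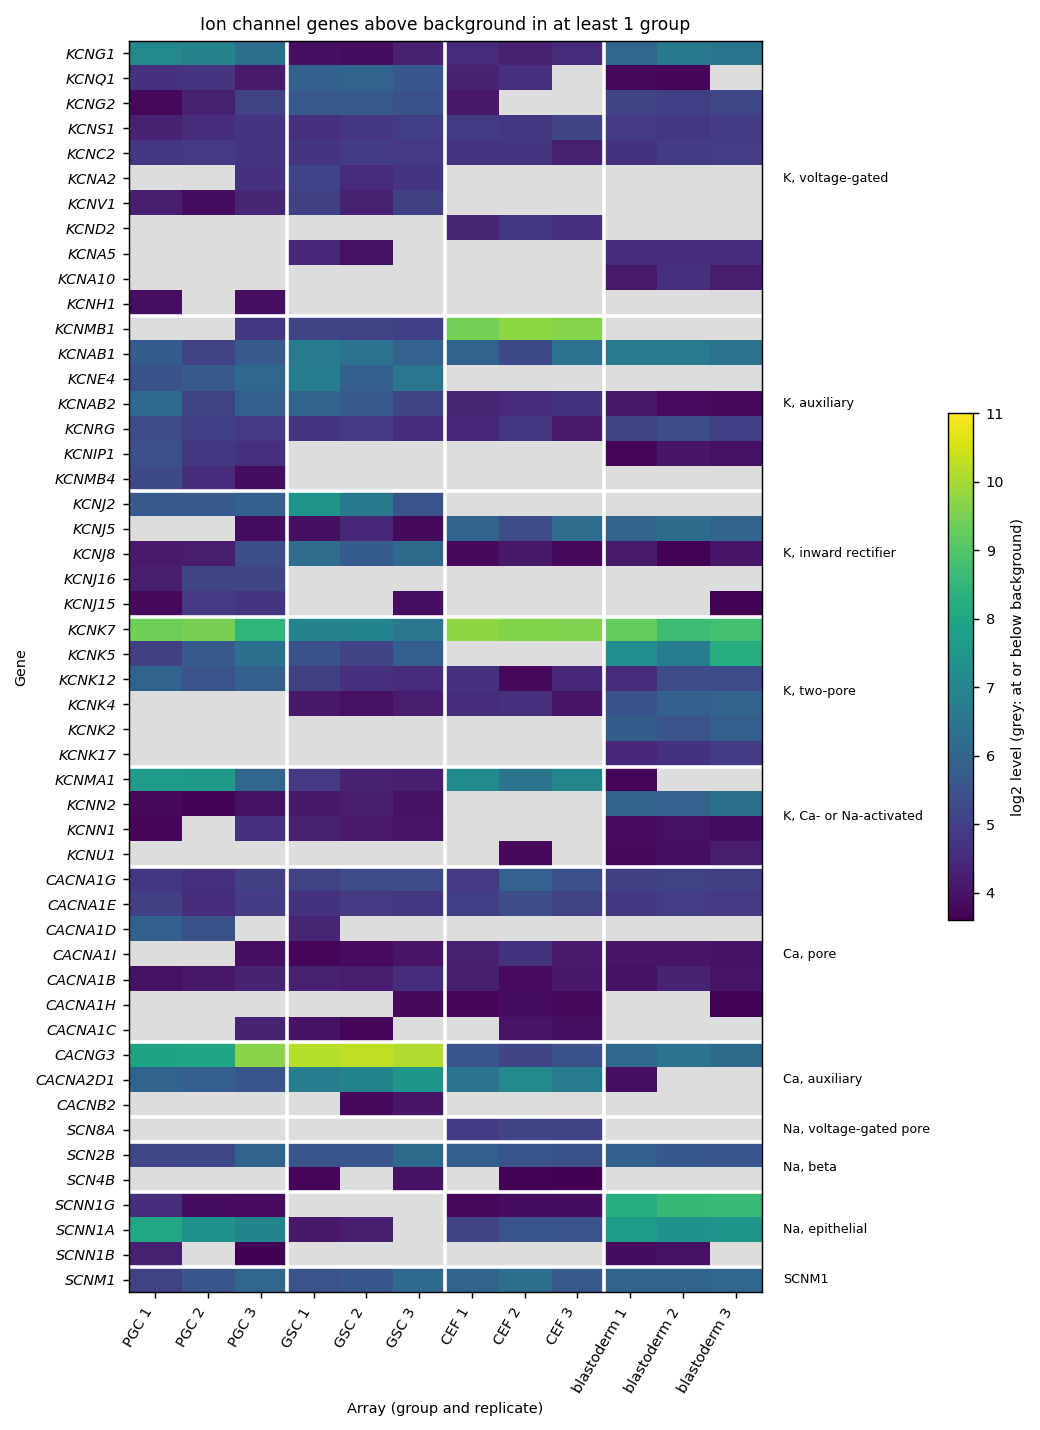
Log2 level of the 50 genes above background in at least 1 group (rows, ordered by class) on each of the 12 arrays (columns), with values at or below background in grey. Colours compare arrays within a row, not genes with each other. KCNMB1 is brightest on the 3 CEF arrays, CACNG3 on the 3 GSC arrays and SCNN1G on the 3 blastoderm arrays.

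Group means were compared in all 6 pairs with limma over the whole array, and a gene was called at a Benjamini-Hochberg adjusted p below 0.05. Log2 fold changes are given as the mean of the first-named group less that of the other, with the standard error (SE) of the fit, 3 arrays a group. In PGC versus GSC 15 channel genes were higher and 11 lower (14.6% and 10.7% of the 103, where 16.8% and 13.4% of all genes were called). In PGC versus blastoderm 18 were higher and 20 lower (17.5% and 19.4%, against 26.2% and 23.5% of all genes). In PGC versus CEF 24 were higher and 12 lower (23.3% and 11.7%, against 27.7% and 22%). With each array centred on its median this last split became 22 higher and 20 lower.

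In GSC versus CEF 18 channel genes were higher and 15 lower (17.5% and 14.6%, against 22.3% and 20.2% of all genes). In GSC versus blastoderm 17 were higher and 21 lower (16.5% and 20.4%, against 24.8% and 25.4%). In CEF versus blastoderm 8 were higher and 20 lower (7.77% and 19.4%, against 24% and 27.2%). As fitted here, the share of channel genes called was below that of all genes in both directions of each comparison. The shares were recomputed under 23 alternative settings, which are not independent of each other. A setting that took probe sets ending in _x_at only where a gene had no other kept the main probe set of every channel gene. Leaving out an array of a group outside the comparison left both group means unchanged. The order of channel genes and all genes turned in 12 of 276 shares. With array weights, for example, 28.2% of channel genes and 22.1% of all genes were lower in PGC versus GSC, and without GSC replicate 2 both shares of PGC versus GSC turned (for example 10.7% against 9.82% lower). Where only probe sets above background in at least 1 group were tested, 4 shares turned, such as 40% against 34% higher in PGC versus CEF. Several others lay close there, such as 32% against 32.6% higher in PGC versus blastoderm and 28% against 29.6% lower in GSC versus blastoderm. The widest gap left was 12% against 29% higher in CEF versus blastoderm. Fewer channel genes than all genes were above background (48.5% against 80.4%). The part of this in the lower shares of the main test was not tested. Counted in either direction, 25.2% of the channel genes were called in PGC versus GSC (30.2% of all genes), 36.9% in PGC versus blastoderm (49.7%), 35% in PGC versus CEF (49.6%), 32% in GSC versus CEF (42.5%), 36.9% in GSC versus blastoderm (50.2%) and 27.2% in CEF versus blastoderm (51.1%). The median log2 fold change of the 103 genes lay between -0.15 and -0.05, and that of all genes between -0.07 and 0. Across the 6 comparisons 63 channel genes were called at least once and 40 never. The 63 included 21 genes below background in every group, and the largest log2 change of a called gene among those was 0.95. A called change of at least 4-fold in at least 1 comparison was found for 22 genes, and every array is given for them below. The shares of all genes called at least once, or at least 4-fold, are not given here. These counts over the 6 comparisons therefore do not set channel genes apart from other genes.

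**Figure D3:**
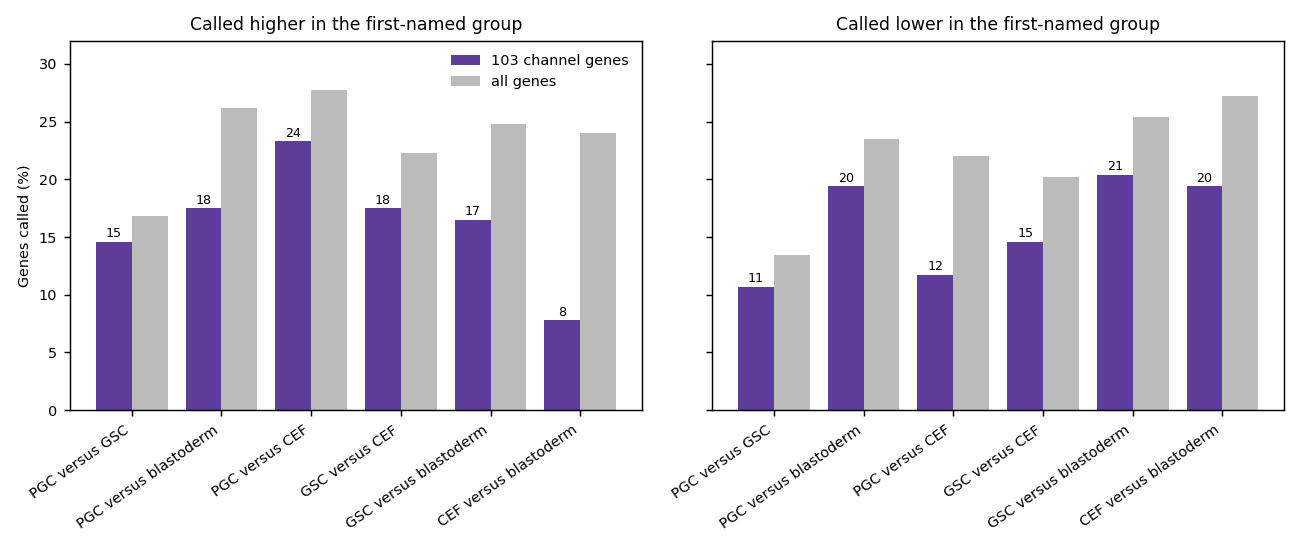
Share of genes called (y axis, percent) as higher (left) or lower (right) in the first-named group, for the 103 channel genes (purple, with their number) and all 13008 genes (grey), in each of the 6 comparisons. Each purple bar drawn is shorter than its grey neighbour, and the widest gap is for genes higher in CEF versus blastoderm, 7.77% against 24%.

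Near background a fold depends on the floor of the scale. Where all 3 arrays of the lower group were at or below background, the fold is therefore given as a lower bound, against the background level or the array's own value where that was higher. When 64 was added to the linear values ahead of the logarithm (an offset), 97 of 103 named gene comparisons changed their fold by more than 1.5 times, and 77 did with an offset of 16.

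The 3 subunits of the epithelial sodium channel that were above background had their highest means in the blastoderm and the next highest in PGC. This channel, built from alpha, beta and gamma subunits, takes up sodium at the apical side of epithelia. SCNN1A, the alpha subunit, measured 8.0, 7.39 and 6.94 in PGC, 4.12, 4.24 and 3.46 in GSC, 5.13, 5.53 and 5.49 in CEF, and 7.69, 7.40 and 7.51 in the blastoderm. PGC and blastoderm arrays overlapped, and both stood clear of CEF and GSC. It was 11.4-fold higher in PGC than in GSC (log2 fold change 3.51, SE 0.27, adjusted p = 1.59e-07) and 12.1-fold lower in GSC than in blastoderm (adjusted p = 2.05e-08). Between PGC and blastoderm the difference did not pass the test (adjusted p = 0.817). The second SCNN1A probe set read 7.34 in the blastoderm, 6.98 in PGC, 2.99 in GSC and 2.61 in CEF. The lower level in GSC than in CEF (log2 -1.45, adjusted p = 0.000449) therefore rests on 1 probe set, and with the mean of both it was -0.53 (adjusted p = 0.108). With an offset of 64 it was -0.41 (adjusted p = 0.0548).

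SCNN1G, the gamma subunit, separated the blastoderm from the other groups. It measured 8.25, 8.57 and 8.63 there, 4.58, 3.84 and 3.83 in PGC, 3.76, 3.85 and 3.87 in CEF, and 3.18, 3.18 and 3.30 in GSC. No array of another group came near the blastoderm values. The blastoderm was at least 29.3-fold higher than GSC (GSC versus blastoderm log2 -5.26, SE 0.22, adjusted p = 3.43e-11). It was 21.1-fold higher than PGC (adjusted p = 3.13e-10) and 25.3-fold higher than CEF (adjusted p = 5.5e-11). Both other SCNN1G probe sets were also highest in the blastoderm, at 5.62 and 6.63, with all other group means at or below 3.57. SCNN1B, the beta subunit, stayed close to background, with a blastoderm mean of 3.69 and a PGC mean of 3.60. PGC arrays of SCNN1B spanned 2.92 to 4.27, on both sides of background. SCNN1D, the delta subunit, was below background in every group.

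Kidney epithelium also uses this channel, and the summed level of its markers was highest in PGC. Of 9 measured kidney markers 8 were above background in PGC (summed level 10.48 to 11.57) and 8 in GSC (8.54 to 8.71), against 2 in CEF (7.44 to 7.86) and 4 in the blastoderm (7.33 to 7.53). CUBN, an endocytic receptor of the proximal tubule, measured 8.31, 9.30 and 8.95 on the PGC arrays, with group means of 5.48 in GSC, 5.27 in CEF and 3.17 in the blastoderm. UMOD, a secreted protein of the thick ascending limb, was higher in GSC (6.89) than in PGC (5.41), and PAX2, a transcription factor of kidney development, was near equal in both (5.72 and 5.68). AQP2, the water channel of the collecting duct, was below background in every group. The part of such cells in the PGC levels of SCNN1A and of the inward rectifiers KCNJ15 and KCNJ16 was not tested.

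Two-pore potassium channels carry the leak current that holds the resting potential, and 4 of the 6 above background had their highest mean in the blastoderm. KCNK5, a pH-sensitive member, measured 7.24, 6.73 and 8.18 in the blastoderm, 5.01, 5.67 and 6.32 in PGC, 5.44, 5.13 and 5.82 in GSC, and 2.60, 2.32 and 1.97 in CEF. CEF lay below background, PGC and GSC overlapped, and the blastoderm was above all 9 other arrays. The level was at least 13.7-fold lower in CEF than in the blastoderm (log2 -5.09, SE 0.36, adjusted p = 6.41e-09) and at least 4.16-fold higher in PGC than in CEF (adjusted p = 1.19e-06). PGC and blastoderm differed by -1.72 (SE 0.36, adjusted p = 0.00106). The other KCNK5 probe set was above background in the blastoderm alone (5.47), with means of 2.18 in PGC, 2.47 in GSC and 1.94 in CEF. The PGC and GSC levels above CEF thus rest on 1 probe set.

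KCNK2 and KCNK4 are mechanically gated members of this family. KCNK2 measured 5.79, 5.51 and 5.85 in the blastoderm, 3.12, 3.22 and 3.38 in CEF, 1.87, 1.97 and 1.98 in PGC, and 2.39, 2.11 and 1.88 in GSC. It was thus above background in the blastoderm alone, at least 4.31-fold higher than in each other group (adjusted p = 1.32e-10 against PGC, 1.34e-10 against GSC and 4.83e-09 against CEF). KCNK4 was also highest in the blastoderm, at 5.48, 5.86 and 5.96. Its other values were 4.57, 4.59 and 4.05 in CEF, 4.11, 3.93 and 4.2 in GSC, and 2.92, 3.03 and 3.02 in PGC. CEF and GSC overlapped (adjusted p = 0.25), and PGC was below background on every array. KCNK4 was at least 4.46-fold lower in PGC than in blastoderm (log2 -2.78, SE 0.20, adjusted p = 2.25e-08). PGC was also at least 1.39-fold lower than GSC (log2 -1.09, adjusted p = 0.00102), a call that an offset of 64 ended (log2 -0.17, adjusted p = 0.0774).

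KCNK7, a member not known to carry current on its own in mammals, had a different pattern, with GSC as the low group. It measured 6.92, 6.94 and 6.54 in GSC, 9.37, 9.50 and 8.44 in PGC, 9.77, 9.59 and 9.56 in CEF, and 9.26, 8.70 and 8.81 in the blastoderm. The 3 GSC arrays lay below the other 9. PGC exceeded GSC 4.93-fold (log2 2.30, SE 0.23, adjusted p = 3.46e-06) and CEF exceeded GSC 7.16-fold (adjusted p = 7.92e-08). PGC replicate 3 was the lowest of the non-GSC arrays. The difference between PGC and CEF did not pass the test (adjusted p = 0.0804).

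KCNK17 and KCNK12 moved less. KCNK17, activated by alkaline pH, had a mean of 4.68 in the blastoderm and of 3.00 to 3.14 in the other groups, so it was at least 2.1-fold higher there (adjusted p = 3.77e-06 against CEF, the next group). KCNK12 was highest in PGC, with a mean of 5.79 against 4.71 in GSC (log2 1.07, SE 0.27, adjusted p = 0.00908) and 4.29 in CEF (log2 1.5, SE 0.27, adjusted p = 0.000339). Its difference from the blastoderm mean of 5.02 was 0.76 (adjusted p = 0.0367). Over all 12 two-pore genes measured, 0 were higher and 7 lower in GSC versus blastoderm, 1 was higher and 5 lower in CEF versus blastoderm, and 2 were higher and 5 lower in PGC versus blastoderm. Of all genes 24.8%, 24% and 26.2% were higher and 25.4%, 27.2% and 23.5% lower in these comparisons.

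Among the inward rectifiers, which pass potassium more easily into the cell than out and so clamp the membrane near its resting potential, KCNJ2 was above background in the 2 gonadal groups alone. KCNJ2, the classical strong rectifier, measured 5.74, 5.74 and 5.91 in PGC and 7.42, 6.59 and 5.51 in GSC. CEF values were 3.53, 3.37 and 3.14, and blastoderm values 3.17, 3.36 and 3.52. The 6 gonadal arrays were all above background and the 6 others all below it, while GSC replicate 3 fell below the PGC arrays. KCNJ2 was at least 4.56-fold higher in PGC than in CEF (adjusted p = 1.83e-05) and at least 7.46-fold higher in GSC than in CEF (log2 3.16, SE 0.33, adjusted p = 1.34e-06). PGC versus GSC was not called (log2 -0.71, SE 0.33, adjusted p = 0.156).

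KCNJ5, a subunit of the G protein-gated rectifier, showed the opposite split. Its values were 5.95, 5.32 and 6.24 in CEF, 5.97, 6.22 and 6.01 in the blastoderm, 3.93, 4.43 and 3.80 in GSC, and 3.32, 3.38 and 3.86 in PGC. CEF and blastoderm overlapped and so did GSC and PGC, with a gap between the pairs. KCNJ5 was lower in PGC than in blastoderm (log2 -2.55, SE 0.25, adjusted p = 6.43e-07), and lower in GSC than in CEF (log2 -1.79, SE 0.25, adjusted p = 3.42e-05). Another 2 of its probe sets above background had the same order of pairs, for example 5.75 in CEF and 5.75 in the blastoderm against 3.91 in GSC and 3.96 in PGC.

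KCNJ8, the pore of an ATP-sensitive channel of vascular cells, was highest in GSC. It measured 6.25, 5.76 and 6.17 in GSC, 4.15, 4.17 and 5.38 in PGC, 3.81, 4.10 and 3.79 in CEF, and 4.13, 3.64 and 4.03 in the blastoderm. PGC replicate 3 stood between the GSC arrays and the rest. GSC exceeded CEF 4.47-fold (log2 2.16, SE 0.29, adjusted p = 1.76e-05), and PGC was lower than GSC (log2 -1.5, SE 0.29, adjusted p = 0.00126). A second probe set read 6.94 in GSC, 5.13 in PGC, 3.64 in CEF and 2.71 in the blastoderm. All 8 endothelial markers were above background in GSC (summed level 9.67 to 10.05) and in PGC (8.38 to 9.45). Of the 8, 4 were above it in CEF (6.99 to 7.61) and 4 in the blastoderm (10.75 to 11.06), with KDR, CDH5 and TEK below background in both. Their part in the KCNJ8 levels was not tested.

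KCNJ16 and KCNJ15, rectifier subunits best known from kidney tubules, were highest in PGC. KCNJ16 measured 4.24, 5.16 and 5.14 in PGC, 2.39, 2.92 and 2.92 in GSC, 2.60, 2.63 and 2.53 in CEF, and 2.58, 2.46 and 2.46 in the blastoderm. Only the PGC arrays were above background, at least 2.36-fold over each other group (PGC versus GSC log2 2.10, SE 0.22, adjusted p = 5.8e-06). KCNJ15 had a PGC mean of 4.44 against 3.05 to 3.53 elsewhere, and was at least 1.78-fold higher in PGC than in CEF (log2 1.39, SE 0.26, adjusted p = 0.000396). For both KCNJ16 and KCNJ15 the other probe set was below background in every group. KCNJ1, the secretory rectifier of the distal kidney tubule, was below background in every group.

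The large-conductance, calcium-activated potassium channel is formed by KCNMA1 and tuned by beta subunits. KCNMA1 measured 7.69, 7.59 and 6.06 in PGC, 7.15, 6.44 and 7.0 in CEF, 4.84, 4.33 and 4.23 in GSC, and 3.75, 3.42 and 3.22 in the blastoderm. PGC and CEF overlapped (adjusted p = 0.607) and lay above every GSC and blastoderm array. KCNMA1 was 6.27-fold higher in PGC than in GSC (log2 2.65, SE 0.35, adjusted p = 5.66e-05) and 12.6-fold higher in PGC than in blastoderm (adjusted p = 4.71e-07), where 1 of 3 arrays was above background. Another 2 probe sets of KCNMA1 were above background, both highest in PGC. They differed on CEF, where 1 read 5.25 and the other 2.63.

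KCNMB1, the beta subunit of smooth muscle, had the widest range between group means of the channel genes. Its values were 9.45, 9.74 and 9.64 in CEF, 5.13, 5.05 and 4.97 in GSC, 3.13, 3.55 and 4.80 in PGC, and 2.98, 2.96 and 2.83 in the blastoderm. CEF stood far above all other arrays, and the PGC arrays ran from below background to near the GSC level. KCNMB1 was at least 64-fold higher in CEF than in the blastoderm (log2 6.68, SE 0.31, adjusted p = 4.55e-11), 54.9-fold higher in CEF than in PGC (adjusted p = 4.09e-10) and 23.6-fold higher in CEF than in GSC (adjusted p = 7.87e-09). The lower level in PGC than in GSC (log2 -1.22, SE 0.31, adjusted p = 0.00852) lost its call without PGC replicate 1 (log2 -0.87, adjusted p = 0.0565) and with an offset of 64 (log2 -0.29, adjusted p = 0.0653). The array held 1 probe set for KCNMB1.

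The summed level of cardiac and smooth muscle markers was also highest in CEF, which TAGLN set for the most part. That of 12 skeletal muscle markers was highest in CEF too (10.78 to 11.02, against at most 8.16 elsewhere), where ACTA1 had a mean of 10.78. Of these 12, however, only 2 were above background in CEF, 3 in PGC, 2 in GSC and 2 in the blastoderm. Of 9 measured cardiac and smooth muscle markers 5 were above background in CEF (summed level 12.45 to 12.58), 4 in PGC (7.75 to 8.21), 3 in GSC (6.71 to 7.11) and 4 in the blastoderm (7.25 to 7.41). TAGLN, an actin-binding protein of smooth muscle and cultured fibroblasts, had a mean of 12.44 in CEF and at most 5.06 elsewhere, and ACTA2, smooth muscle actin, 6.05 in CEF and at most 2.17 elsewhere. MYH11, the smooth muscle myosin, was below background in every group. DES, the muscle intermediate filament protein, was higher in the blastoderm (4.12) than in CEF (3.73), the troponin TNNC1 in PGC (6.79 against 4.59) and the slow myosin MYH7 in GSC (4.94 against 2.47). The part of smooth muscle cells in the KCNMB1 level was not tested. KCNMB4, the neuronal beta subunit, was above background in PGC alone (mean 4.55), at least 1.92-fold over each other group (PGC versus GSC log2 1.17, SE 0.27, adjusted p = 0.00542).

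Small-conductance calcium-activated channels open on intracellular calcium without a voltage step. KCNN2 measured 5.97, 5.94 and 6.27 in the blastoderm, 4.12, 4.16 and 3.97 in GSC, 3.77, 3.68 and 3.95 in PGC, and 2.94, 3.53 and 2.95 in CEF. The blastoderm was above all other arrays, and CEF was below background. It was at least 5.47-fold lower in CEF than in the blastoderm (log2 -2.92, SE 0.20, adjusted p = 5.66e-09), and lower in PGC than in blastoderm (log2 -2.26, SE 0.20, adjusted p = 2.1e-07). KCNN1 was likewise below background in CEF, with a mean of 3.10, and reached 4.13 in GSC (at least 1.44-fold, adjusted p = 0.00314). KCNU1, known from mammalian sperm and not one of the small-conductance channels, had a mean above background in the blastoderm alone (3.96). It was at least 1.28-fold higher there than in PGC (adjusted p = 0.00381). Its difference from CEF, the next group (mean 3.50), did not pass the test (adjusted p = 0.115).

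**Figure D4:**
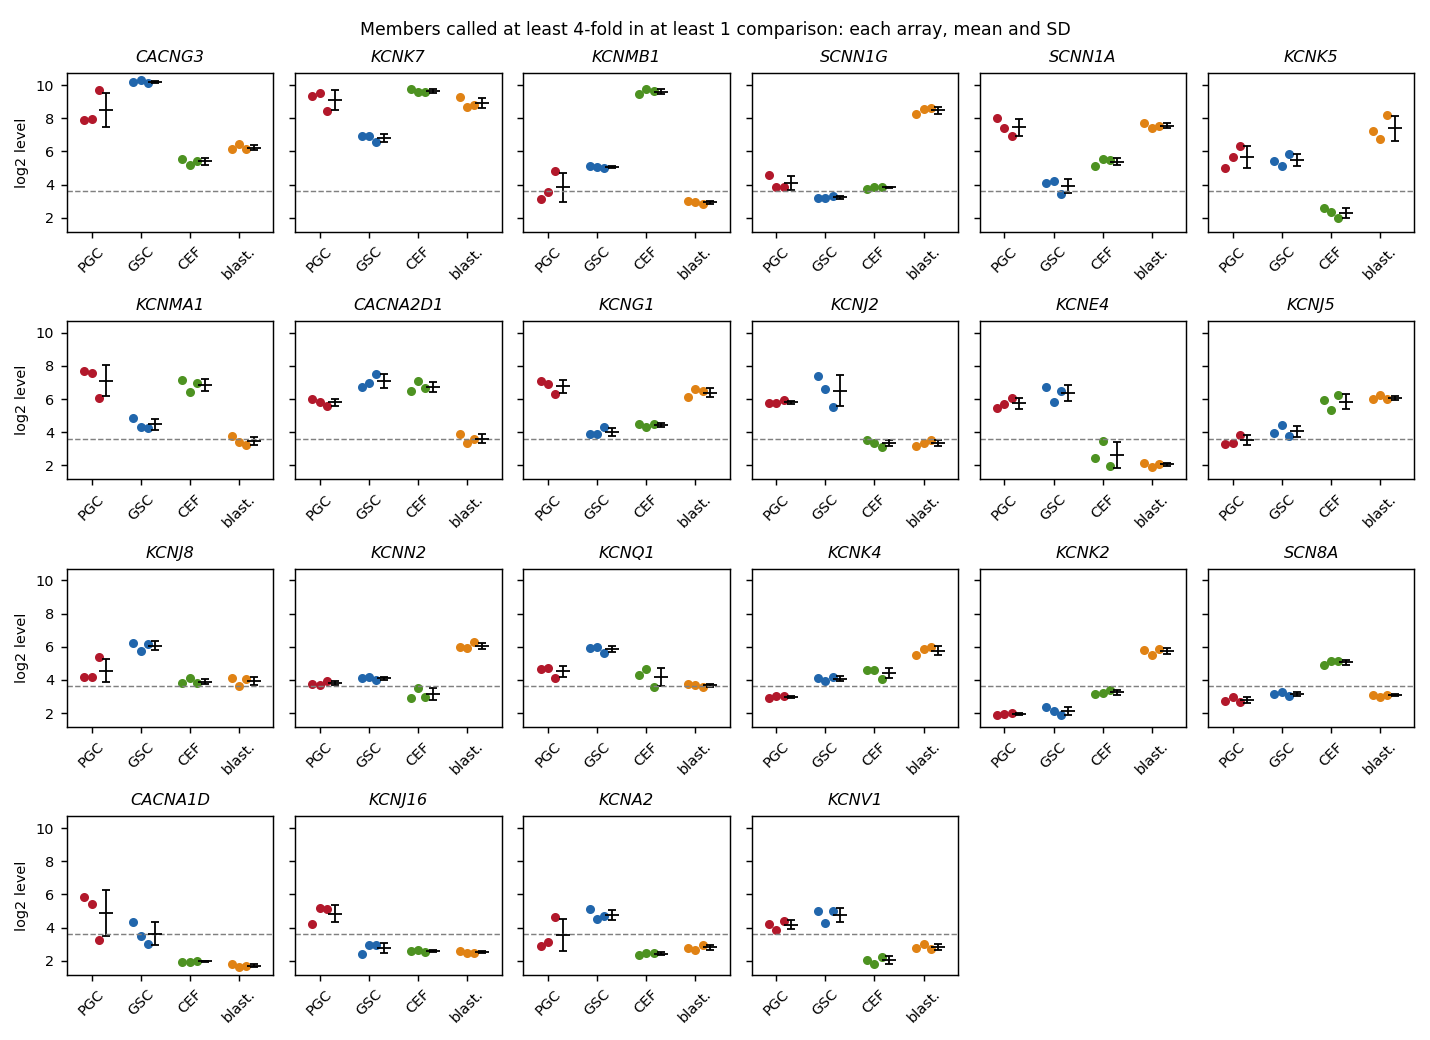
Log2 level (y axis) of the 22 genes called at least 4-fold in at least 1 comparison, 1 panel per gene: points are arrays of PGC, GSC, CEF and blastoderm, the cross-bars the mean ± SD (n = 3), the dashed line the background of 3.61. CACNG3, KCNMB1, KCNJ8, KCNA2, KCNMA1 and CACNA1D show 1 PGC array, replicate 3, apart from the other PGC arrays and on the side of GSC.

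Voltage-gated potassium channels repolarise the membrane after it is depolarised. KCNG1 belongs to the modifier subunits, which conduct only together with another voltage-gated pore. It measured 7.08, 6.90 and 6.29 in PGC, 6.10, 6.59 and 6.49 in the blastoderm, 4.48, 4.30 and 4.50 in CEF, and 3.90, 3.86 and 4.29 in GSC. PGC and blastoderm overlapped (adjusted p = 0.231) and stood clear of the others. KCNG1 was 6.69-fold higher in PGC than in GSC (log2 2.74, SE 0.23, adjusted p = 5.03e-07) and 5.04-fold higher in PGC than in CEF (adjusted p = 5.71e-07). Its second probe set read 4.05 in PGC and 3.58 in the blastoderm, against 2.44 in GSC and 2.30 in CEF.

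KCNG2, a close relative of KCNG1, had its low level in CEF and PGC. Its means were 5.61 in GSC, 5.10 in the blastoderm, 4.36 in PGC and 3.74 in CEF. PGC was lower than GSC (log2 -1.25, SE 0.27, adjusted p = 0.00335) and GSC higher than CEF (log2 1.87, SE 0.27, adjusted p = 4.95e-05). KCNV1, another modifier, measured 5.02, 4.29 and 5.01 in GSC, 4.23, 3.86 and 4.42 in PGC, 2.79, 3.03 and 2.70 in the blastoderm, and 2.04, 1.79 and 2.24 in CEF. All 6 gonadal arrays were above background and the 6 others below it. KCNV1 was at least 2.24-fold higher in GSC than in CEF (log2 2.75, SE 0.22, adjusted p = 6.35e-08) and at least 1.48-fold higher in PGC than in blastoderm (adjusted p = 0.000148).

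KCNQ1 forms a slow channel of heart and epithelia, whose gating depends on its KCNE partner. It measured 5.92, 6.0 and 5.63 in GSC, 4.66, 4.73 and 4.14 in PGC, 4.31, 4.62 and 3.56 in CEF, and 3.77, 3.71 and 3.59 in the blastoderm. GSC was above all other arrays, and PGC and CEF overlapped. PGC was lower than GSC (log2 -1.34, SE 0.25, adjusted p = 0.00117), and GSC was 4.47-fold higher than the blastoderm (adjusted p = 3.42e-06). KCNE4, a partner that inhibits KCNQ1 in mammals, measured 6.73, 5.84 and 6.5 in GSC, 5.43, 5.69 and 6.09 in PGC, 2.44, 3.49 and 1.99 in CEF, and 2.16, 1.93 and 2.07 in the blastoderm. GSC and PGC overlapped (adjusted p = 0.205), and the other 2 groups were below background on every array. KCNE4 was at least 6.72-fold higher in GSC than in CEF (log2 3.72, SE 0.32, adjusted p = 1.44e-07) and at least 4.38-fold higher in PGC than in blastoderm (log2 3.68, SE 0.32, adjusted p = 1.55e-07). A second KCNE4 probe set had the same 2 groups above background, at 4.87 and 4.19. KCNE1, KCNE2 and KCNE3 were below background in every group.

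KCNA2, a delayed rectifier of axons, measured 5.10, 4.52 and 4.71 in GSC and 2.90, 3.13 and 4.66 in PGC. Its values were 2.32, 2.49 and 2.47 in CEF and 2.78, 2.65 and 2.95 in the blastoderm. PGC replicate 3 lay at the GSC level and the other PGC arrays below background. GSC was at least 2.25-fold higher than CEF (log2 2.35, SE 0.33, adjusted p = 2.81e-05) and than the blastoderm (adjusted p = 0.000119). KCNA10 and KCNA5, of the same family, were highest in the blastoderm with means of 4.32 and 4.55. KCNA10 was at least 1.63-fold above each other group there (adjusted p = 6.13e-05 against CEF), and KCNA5 at least 1.93-fold above PGC (PGC versus blastoderm log2 -1.49, SE 0.21, adjusted p = 2.72e-05). KCNH1, an ether-a-go-go channel, exceeded background in PGC alone and by little (3.65).

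KCND2, which carries a fast transient current in neurons, was above background in CEF alone, on all 3 arrays (4.37, 4.82 and 4.61). It was at least 1.99-fold higher there than in GSC (GSC versus CEF log2 -1.06, SE 0.18, adjusted p = 0.000178). KCNIP1, a calcium-binding partner of that channel, was highest in PGC instead, with a mean of 4.95 against 3.90 in the blastoderm, 3.47 in GSC and 3.19 in CEF (at least 2.53-fold over GSC, PGC versus GSC log2 1.48, SE 0.23, adjusted p = 0.000204). The other KCNIP1 probe set was below background in every group, with means of 2.13 to 2.28. Of the cytoplasmic beta subunits, KCNAB2 had means of 5.68 in PGC and 5.63 in GSC against 4.53 in CEF and 3.90 in the blastoderm, and PGC was higher than blastoderm (log2 1.78, SE 0.28, adjusted p = 6.75e-05). A second KCNAB2 probe set was highest in CEF instead (5.33, against 4.65 in PGC). KCNAB1 was above background on all 12 arrays, and its sole call was a lower level in PGC than in blastoderm (log2 -1.06, SE 0.29, adjusted p = 0.00752). KCNRG, known in human cells as a suppressor of channel assembly, had means of 4.45 to 5.13, and CEF was lower than PGC (PGC versus CEF log2 0.60, adjusted p = 0.035) and blastoderm (CEF versus blastoderm log2 -0.69, adjusted p = 0.0168).

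Among the calcium channel genes, the largest differences between groups were in the auxiliary subunits CACNG3 and CACNA2D1. CACNG3 is a protein of the gamma subunit family that in mammals binds glutamate receptors of the AMPA type in neurons. It measured 10.17, 10.28 and 10.11 in GSC, 7.88, 7.97 and 9.69 in PGC, 6.12, 6.42 and 6.16 in the blastoderm, and 5.57, 5.16 and 5.45 in CEF. The groups did not overlap, and PGC replicate 3 was the PGC array nearest to GSC. GSC was 27.7-fold higher than CEF (log2 4.79, SE 0.34, adjusted p = 1.26e-08) and 15.5-fold higher than the blastoderm (adjusted p = 9.38e-08). PGC was lower than GSC (log2 -1.67, SE 0.34, adjusted p = 0.00181). Without PGC replicate 3 the PGC differences were -2.26 from GSC, 1.70 from blastoderm and 2.53 from CEF, against -1.67, 2.29 and 3.12 with it.

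The CACNG3 signal came from 1 probe set, whose annotation was not checked against its sequence here. The other probe set annotated to CACNG3 was below background in every group, with means of 2.37 to 2.83. Of 13 neural markers measured, 9 were above background in GSC (summed level 9.74 to 10.12), 7 in PGC (9.89 to 9.99), 7 in the blastoderm (8.65 to 8.90) and 6 in CEF (7.66 to 7.92). SNAP25, SYT4, GAP43 and DBH were below it in every group. Their part in the CACNG3 level was not tested. The relatives CACNG1, CACNG2, CACNG4 and CACNG5 were below background in every group.

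CACNA2D1 is the extracellular alpha2delta subunit that brings calcium channels to the surface. It measured 6.71, 6.95 and 7.53 in GSC, 6.46, 7.09 and 6.66 in CEF, 6.0, 5.83 and 5.57 in PGC, and 3.91, 3.34 and 3.58 in the blastoderm. GSC and CEF overlapped (adjusted p = 0.345), PGC was below both, and the blastoderm was lowest. GSC was 11-fold higher than the blastoderm (log2 3.45, SE 0.25, adjusted p = 1.4e-08), where 1 of 3 arrays was above background. PGC was 4.56-fold higher than the blastoderm (adjusted p = 2.71e-06) and lower than GSC (log2 -1.26, SE 0.25, adjusted p = 0.00147). Another 2 probe sets above background were also highest in GSC and lowest in the blastoderm. CACNB2, an intracellular beta subunit, exceeded background in GSC alone and by little (3.67).

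CACNA1D, a pore of the L type that opens at low voltage, was the calcium channel pore with the largest change. Its values were 5.86, 5.44 and 3.27 in PGC, 4.36, 3.51 and 3.02 in GSC, 1.93, 1.95 and 2.00 in CEF, and 1.79, 1.60 and 1.69 in the blastoderm. CEF and blastoderm were far below background, while the PGC and GSC arrays spread across it. PGC was at least 2.38-fold higher than the blastoderm (log2 3.16, SE 0.47, adjusted p = 4.36e-05) and than CEF (log2 2.90, SE 0.47, adjusted p = 0.000105). Without PGC replicate 3, which was itself below background, these differences were 3.96 and 3.69. The GSC mean of 3.63 also exceeded CEF (log2 1.67, adjusted p = 0.0105) and blastoderm (log2 1.94, adjusted p = 0.00319), but by a bound of only 1.02-fold. Both calls ended with an offset of 16 (log2 0.54, adjusted p = 0.147, and 0.59, adjusted p = 0.108), and with 64 (0.19, adjusted p = 0.31, and 0.20, adjusted p = 0.265). The one against CEF also ended without GSC replicate 1 (log2 1.31, adjusted p = 0.0687).

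Other calcium channel pores varied less. CACNA1G, of the low-voltage T type, had means of 4.81 to 5.39, CACNA1E, of the R type, 4.78 to 5.12, and CACNA1B, of the N type, 4.05 to 4.36, and none was called in any comparison. The T type pores CACNA1I and CACNA1H were lower in PGC than in CEF (log2 -0.82, SE 0.21, adjusted p = 0.00512, and log2 -0.71, SE 0.19, adjusted p = 0.00732, at least 1.13-fold). CACNA1C, the L type pore of heart and smooth muscle, had means of 3.37 to 3.78 and was not called. A second CACNA1G probe set had means of 4.49 in GSC and 4.22 in PGC against 3.17 in CEF and 3.16 in the blastoderm, an order that the first did not have.

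Sodium channel pores, which drive action potentials, were below background in every group apart from SCN8A. SCN8A measured 4.89, 5.17 and 5.12 in CEF, 3.17, 3.26 and 3.00 in GSC, 3.11, 2.99 and 3.08 in the blastoderm, and 2.71, 2.98 and 2.64 in PGC. It was above background on the CEF arrays alone. CEF was at least 2.73-fold higher than PGC (PGC versus CEF log2 -2.28, SE 0.17, adjusted p = 1.49e-08), GSC (GSC versus CEF log2 -1.92, SE 0.17, adjusted p = 1.41e-07) and the blastoderm (CEF versus blastoderm log2 2.00, SE 0.17, adjusted p = 4.61e-08). A second SCN8A probe set also exceeded background in CEF alone, by little (3.63). The 6 other pore genes had group means of 1.66 to 2.96. The beta subunit SCN2B, by contrast, had means of 5.46 to 5.77 in all groups and was not called. This level is that of its brightest probe set. Its further probe sets had means of 3.35 to 3.83, on both sides of background, and of 2.63 to 2.81, below it.

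In 8 genes above background no comparison was called, namely SCNM1, SCN2B, CACNA1G, CACNA1E, KCNS1, KCNC2, CACNA1B and CACNA1C. Their group means spread by 0.28 to 0.59 on the log2 scale. A p above the threshold does not show that their levels were equal. KCNC2, a fast delayed rectifier, had 2 further probe sets above background in CEF alone, at 3.96 and 4.10, a difference that its first probe set (4.57 in CEF, 4.81 to 4.84 elsewhere) did not show.

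Several of these genes lie next to each other. By RefSeq gene order (GRCg7b), 14 pairs of channel genes had no protein-coding gene between them, and in 6 pairs both genes were above background. SCNN1B and SCNN1G on chromosome 14 were both highest in the blastoderm, as were KCNK17 and KCNK5 on chromosome 3, and SCN4B and SCN2B on chromosome 24 were both highest in GSC. The other 3 pairs differed in their highest group. KCNIP1 and KCNMB1 on chromosome 13 were highest in PGC and in CEF, KCNJ16 and KCNJ2 on chromosome 18 in PGC and in GSC, and KCNA10 and KCNA2 on chromosome 26 in the blastoderm and in GSC. These are ranks of means. The highest group was not called apart from the next for SCNN1B (adjusted p = 0.822), SCN4B (0.694), SCN2B (0.904) and KCNJ2 (0.156). How often neighbouring genes in general share their highest group is not given here.

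Further probe sets bear on how far a level rests on 1 measurement. Of the 50 genes above background, 29 had more than 1 probe set, and for 18 a second probe set was also above background. The second was highest in the same group as the first for 12 of the 18. No further probe set of a named gene was called in the opposite direction in a comparison named for it.

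Genes that work with these channels were compared from a list of 18 partners, of which 15 were measured and 12 above background. In PGC versus CEF 7 of the 15 were higher and 4 lower (46.7% and 26.7%, against 27.7% and 22% of all genes). GSC versus CEF had 7 and 2 (46.7% and 13.3%, against 22.3% and 20.2%), and CEF versus blastoderm 4 and 8 (26.7% and 53.3%, against 24% and 27.2%). The counts were 2 and 2 in PGC versus GSC (13.3% each, against 16.8% and 13.4%). They were 5 and 4 (33.3% and 26.7%) in PGC versus blastoderm (26.2% and 23.5% of all genes) and in GSC versus blastoderm (24.8% and 25.4%). The median log2 fold change of the 15 ran from -0.58 in CEF versus blastoderm (all genes -0.05) to 0.35 in PGC versus CEF (all genes 0). DPP10, an accessory subunit of KCND2-type channels, had means of 7.41 in PGC and 7.28 in GSC against 2.57 in CEF, the group with KCND2 above background, and 3.40 in the blastoderm (at least 14-fold in PGC over CEF, log2 4.84, SE 0.26, adjusted p = 3.86e-10). FGF13, an intracellular partner of sodium channels, was 6.79 in PGC and 8.02 in the blastoderm against 2.99 in GSC and 1.71 in CEF (at least 9.06-fold in PGC over GSC, log2 3.80, SE 0.29, adjusted p = 1.94e-07). ANK3, which anchors sodium channels to the membrane skeleton, was 8.19 in GSC and 4.91 in CEF (log2 3.28, SE 0.24, adjusted p = 2.13e-08). GEM, an inhibitor of voltage-gated calcium channels, was 7.0 in CEF and 1.92 in the blastoderm (at least 10.5-fold, log2 5.07, SE 0.43, adjusted p = 6.29e-08).

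A second list held other ion channels, pumps and store-operated entry genes, with 80 of 93 measured and 56 above background. Read against the same shares of all genes, 14 of the 80 were higher and 30 lower in PGC versus CEF (17.5% and 37.5%), 13 and 26 in GSC versus CEF (16.2% and 32.5%), and 24 and 15 in CEF versus blastoderm (30% and 18.8%). The counts were 10 and 11 in PGC versus GSC (12.5% and 13.8%), 19 and 14 in PGC versus blastoderm (23.8% and 17.5%), and 18 and 15 in GSC versus blastoderm (22.5% and 18.8%). The median log2 fold change of the 80 ran from -0.24 in PGC versus CEF and GSC versus CEF (all genes 0 and -0.02) to 0.09 in CEF versus blastoderm (all genes -0.05). Of the store-operated entry genes, STIM1, STIM2 and ORAI1 were highest in the blastoderm, at 10.41, 8.26 and 9.08, and ORAI2, also on the list, is not described here. PGC was lower than blastoderm for all 3 (log2 -2.37, -3.41 and -2.33, with adjusted p = 1.06e-08, 3.09e-10 and 5.5e-08). TRPC6, TRPV2 and TRPV6, cation channels permeable to calcium, were highest in CEF at 6.83, 6.75 and 7.51 and below background on every PGC array. CEF exceeded PGC at least 9.32-fold, 8.84-fold and 14.9-fold (PGC versus CEF log2 -4.88, -3.70 and -4.09, with adjusted p = 4e-11, 1.62e-09 and 1.81e-10). PIEZO2, a channel opened by membrane stretch, was highest in GSC at 7.09, against 5.39 in PGC, 2.82 in CEF and 2.27 in the blastoderm (at least 11.1-fold in GSC over the blastoderm, log2 4.81, SE 0.32, adjusted p = 6.67e-09).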

How the data were processed

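RNA of 12 samples, 3 per group, was hybridised to 12 Affymetrix chicken arrays. The authors deposited 1 table of 38535 probe sets with log2 values from 1.02 to 13.18. Array medians lay between 3.45 and 3.60, so no further scaling was applied. The submitters' processing notes name MAS5, and the sources used here do not say how it led to these log2 values. Control probe sets (96) and viral or reporter probe sets (746) were left out, which left 37693, of which 27166 had 1 gene symbol, 177 several and 10350 none. A further probe set with several sodium channel symbols was not used. Of the 103 channel genes, 101 were found in RefSeq by identifier, with the same symbol.

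Group differences came from limma 3.58.1 (R 4.3.3), fitted to all 12 arrays at once (lmFit, then eBayes with an intensity trend; 8 residual degrees of freedom). Tests were two-sided, and p-values were adjusted by Benjamini-Hochberg within a comparison, over 37693 probe sets. The fit was also run on data simulated from the group means and spread of these arrays, and the outcome is not given here. Per comparison, named genes were called at least 2-fold, did not overlap between arrays and had the higher mean above background, up to 10 per direction. Other members above background are given by their levels. For some of these a test is printed too, as for KCNRG, CACNA1I, CACNA1H and KCNU1, without being among the named gene comparisons. The members and lists were chosen with earlier results of these data known. The labels call the samples independent, and deviations of arrays with the same replicate number correlated at -0.14 to 0.18, so arrays were not paired. The number of arrays limits the precision. Alternatives are given at the end. No sequences are printed, since none were among the sources used here.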

Additional observations from a re-analysis of the deposited data

How the results depend on the processing

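The 13 counts (called channel genes per comparison and direction, and genes above background) were recomputed under each alternative. The setting on _x_at probe sets kept every channel gene's main probe set, so its values repeat the main ones. With it included there were 292 values, 283 of them within 1.5 times the main count. The 9 others are as follows. Array weights raised the genes lower in PGC versus GSC from 11 to 29, those lower in GSC versus CEF from 15 to 24, and those higher in CEF versus blastoderm from 8 to 13. With these weights the channel gene shares were 28.2%, 23.3% and 12.6%. Those of all genes rose too, from 13.4%, 20.2% and 24% to 22.1%, 26.2% and 26.2%. Testing only probe sets above background, fewer than in the main test, gave 13 in place of 20 lower in PGC versus blastoderm. This setting tested 50 channel genes in place of 103, so the share lower was 26% against 19.4% in the main test. Over all genes that share was 26.9% in this setting and 23.5% in the main test. Median centring gave 20 in place of 12 lower in PGC versus CEF (19.4% of channel genes and 24.9% of all genes). A background at the 95th percentile put 76 genes above it in place of 50. The share of all genes above that level is not given here. The cause of these shifts was not tested.

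Leaving out each array in turn gave ranges of 11 to 15 higher and 8 to 16 lower for PGC versus GSC, 15 to 19 and 15 to 25 for PGC versus blastoderm, 21 to 24 and 10 to 16 for PGC versus CEF, 16 to 20 and 9 to 15 for GSC versus CEF, 13 to 17 and 15 to 21 for GSC versus blastoderm, and 5 to 9 and 16 to 22 for CEF versus blastoderm. The shares of all genes moved as well. In PGC versus GSC they were 12.1% higher and 8.79% lower without PGC replicate 1 (channel genes 10.7% and 7.77%). Without PGC replicate 3 they were 20.6% and 16.8% (channel genes 14.6% and 15.5%). The low end of 9 in GSC versus CEF came without CEF replicate 2 (8.74%, against 17.7% of all genes). That of 5 in CEF versus blastoderm came without blastoderm replicate 2 or 3 (4.85%, against 21.9% and 21.6% of all genes). Genes above background numbered 48 to 51. With the replicate number as a block, the counts in PGC versus GSC were 17 higher and 14 lower (16.5% and 13.6%, against 17.2% and 13.8% of all genes). No count left the range of 1.5 times the main one with this block. The share of higher calls moved by over 10 points in PGC versus GSC with array weights (17 higher, 29 lower) and with only probe sets above background (10 and 12), in PGC versus CEF with median centring (22 and 20), and in GSC versus CEF without CEF replicate 2 (17 and 9). How far this share moved over all genes is not given here. Of the 103 named gene comparisons (33 genes), none reversed under 23 settings, and 10 of 2369 values lost their call, all given with their genes. Tests printed for comparisons outside these 103 are not covered by this. The mean of all probe sets of a gene moved 45 folds by over 1.5 times, and levels near background limit the folds.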
